A study of Mus musculus with 40 samples.

Results

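Placental hormones, secreted glycoproteins, proteases and homeobox proteins are encoded in the mouse by gene families that have multiplied in tandem and by a few X-linked genes, and their RNAs are described here in embryonic stem (ES) cells that lost Pou5f1 and in ES cells treated with retinoic acid (RA). The genes were chosen by symbol: the prolactin family (Prl with a number), the pregnancy-specific glycoproteins (Psg), the Ceacam genes, the cathepsins (Cts), and Rhox6, Rhox9, Esx1, Plac1 and Nrk. By this rule 59 genes were found among the 13874 named genes on the 3 array designs used. Of these, 54 were among the 11279 named genes of the design with the longest time course, and all 59 were on each of the other 2 designs. The families hold 19 prolactins, 6 Psg genes, 10 Ceacam genes, 6 cathepsins of the rodent placental group (Cts3, Cts6, Cts7, Cts8, Ctsm and Ctsr), 13 other cathepsins, 3 homeobox genes, and Plac1 with Nrk. A mouse gene table holds 82 symbols that fit the rule, and 23 of them had no named probe here.

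The proteins of the prolactin family and the Psg family are secreted by trophoblast, the outer lineage of the embryo that builds the placenta, and each trophoblast cell type uses its own subset. Ceacam proteins are cell-surface relatives of the Psg proteins. Cathepsins are proteases: most work in the lysosome of almost every cell, and the placental group is a rodent branch made in trophoblast. Esx1, Rhox6 and Rhox9 are X-linked homeobox transcription factors known from placenta and germ cells, Plac1 is a trophoblast surface protein, and Nrk is a protein kinase of the placenta. Pou5f1 (Oct4) keeps ES cells pluripotent, and its loss is known to turn them towards trophoblast.

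RNA was measured in 3 experiments on 40 two-color arrays. ZHBTc4 ES cells, in which both Pou5f1 alleles are inactivated and a transgene repressed by tetracycline (Tet) supplies the protein, were sampled before Tet (0 hr) and every 24 hr up to 120 hr of Tet, with 3 arrays at each time (18 late arrays), and again before Tet and at 3, 6, 12 and 24 hr of it, with 2 arrays each (10 early arrays). In the Nanog experiment 4 lines were cultured for 3 days with LIF, without LIF or with LIF and 1 µM RA, with 1 array each (12 arrays). The lines are a clone with an episomal Nanog transgene and its parental line MG1.19 (129Sv), and a clone with an integrated Nanog transgene and the line ES 129.3 (129SvEv-Tac), set as its parental line by strain. The labels give a passage number for the parental lines and none for the clones. ZHBTc4 cells of the early arrays were passaged on gelatin to remove feeder cells, Nanog lines were also passaged on gelatin, and each line is 1 clone or culture. The labels do not say whether arrays of 1 time point came from separate cultures, so that p-values measure the spread between these arrays.

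Values are log2(Cy3/Cy5) unless called a Cy3 or Cy5 signal, where Cy3 is the ES cell sample and Cy5 a Universal Mouse Reference RNA, and it compares 1 gene across arrays and never 1 gene with another. A gene was called changed at a limma p of 0.05, adjusted over all gene probes, and a difference of 1.5-fold. Replicate arrays correlated at 0.960 to 0.994 on the late and 0.957 to 0.981 on the early arrays, across genes, which are not independent. On the late arrays 69.8% to 83.7% of the gene probes had a Cy3 signal that exceeded the negative controls (their 95th percentile), compared with 93.2% to 99.6% on the early arrays and 94.9% to 98.2% in the Nanog experiment. Median Cy3 signals of 531 to 776 were measured over all arrays. The targeted gene followed its label on the late arrays: Pou5f1 read 1.91, 2.40 and 2.04 at 0 hr and -0.30 to 0.12 at all later times. On the early arrays 1 of its probes went from 2.92 and 1.52 at 0 hr to -0.53 and -0.61 at 24 hr, and its brighter probe from 3.97 and 3.97 to 3.46 and 3.38. The sum of the Cy3 signals of 10 ES cell markers was 137765 to 159132 at 0 hr and 12595 to 15002 at 120 hr on the late arrays. The Nanog probe read lower on the arrays labelled episomal Nanog clone than in MG1.19 in all 3 media (-0.63, -0.46 and -0.60), against the label, and higher in the integrated clone than in ES 129.3 (0.87, 0.17 and 1.22). By real-time PCR the study reports raised Nanog in both clones, more so in the episomal one. Whether this array probe lies in the transgene transcript was not tested.

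After 120 hr of Tet, 12 of the 54 genes were called higher and 0 lower by limma, compared with 16.9% of all named genes called higher and 12.4% called lower. At an unadjusted p of 0.05, 21 were higher and 4 lower. The 12 genes were all 5 X-linked genes (Nrk, Rhox6, Plac1, Esx1 and Rhox9), the lysosomal cathepsins Ctsz, Ctsl, Ctsa, Ctsb and Ctsd, and 1 gene each of the placental cathepsins (Ctsr) and the prolactins (Prl2a1). The median difference was 0.071 over the 54 genes and 0.004 over all named genes, and 36 of the 54 lay above 0. Called genes increased in number with time: 5 higher and 1 lower at 24 hr (of all named genes 6.10% higher and 4.84% lower). The counts were 6 higher and 1 lower at 48 hr (7.87% and 7.10%), 7 higher and 1 lower at 72 hr (11.5% and 9.32%), and 10 higher and 0 lower at 96 hr (15.0% and 10.4%). In these cultures a change in the number of cells of a type and a change of RNA per cell cannot be told apart.

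**Figure D1:**
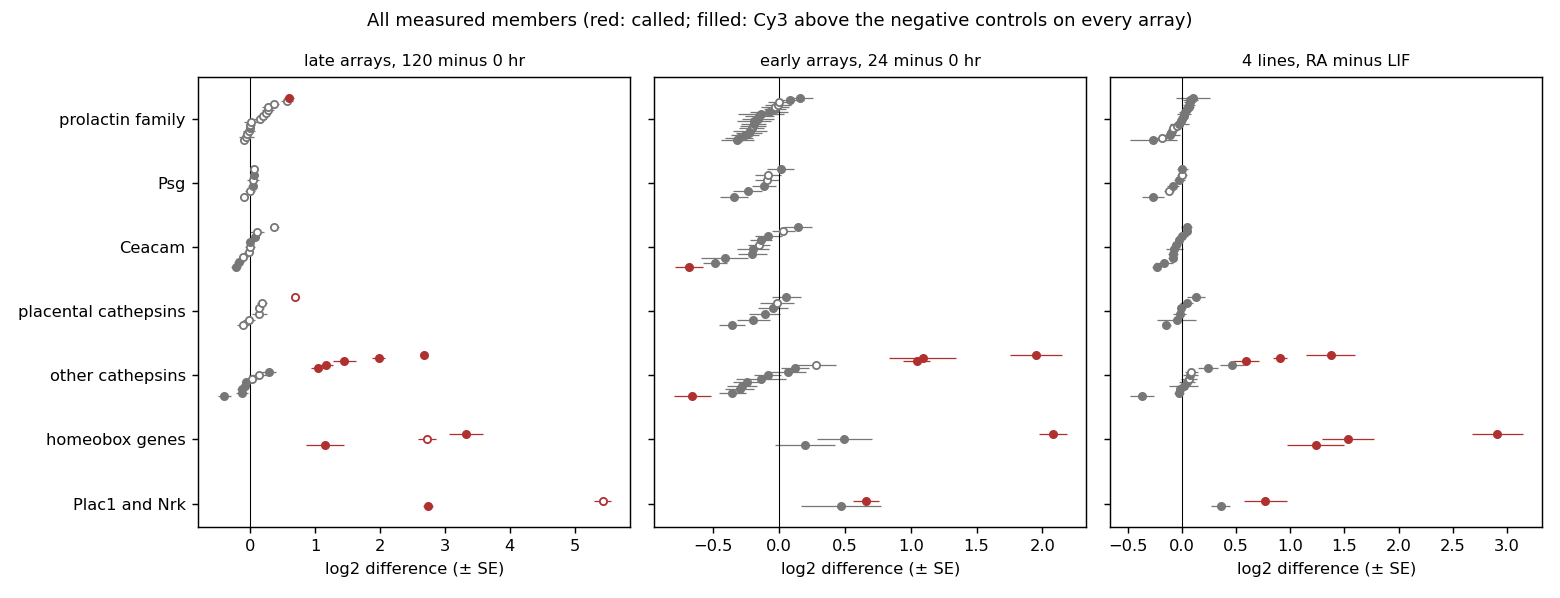
All genes of the rule by family, with the difference in log2(Cy3/Cy5) and its standard error at 120 hr of Tet (late arrays), at 24 hr (early arrays) and for RA minus LIF (Nanog experiment). Red marks called genes and filled points a Cy3 signal above the negative controls on every array. Most red points are X-linked genes and lysosomal cathepsins, and those outside them are Ctsr and Prl2a1 at 120 hr and Ceacam20 at 24 hr.

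The X-linked genes were not ordered by size, because some were not above the negative controls at 0 hr and others were saturated later. Nrk, whose Cy3 signal was not above the negative controls at 0 hr, read -0.15, -0.25 and -0.06 at 0 hr, 1.34, 1.59 and 0.96 at 24 hr, 3.06, 3.00 and 3.00 at 48 hr, 4.38, 4.56 and 4.33 at 72 hr, 4.48, 4.89 and 4.82 at 96 hr, reaching 5.25, 5.20 and 5.37 at 120 hr. No array of a later time overlapped with 0 hr, and from 24 to 72 hr the 3 arrays of each time lay above all arrays of the time before. Because the signal at 0 hr gives only an upper bound, the Cy3 level was at least 1.36-fold higher at 24 hr, 4.49-fold at 48 hr, 11.7-fold at 72 hr, 16.01-fold at 96 hr and 23.0-fold at 120 hr. The difference in log2 ratio at 120 hr was 5.43 (SE 0.13, n = 3 and 3, limma adjusted p = 1.62e-15). The raw Cy3 signal went from 533, 524 and 534 to 2460, 3608 and 3777.

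Plac1 entered 1 day later. It read -0.38, -0.47 and -0.33 at 0 hr and -0.40, -0.39 and -0.47 at 24 hr, which overlap, and then 1.56, 1.68 and 1.84 at 48 hr. It then read 2.23, 2.41 and 2.39 at 72 hr, 2.08, 2.25 and 2.29 at 96 hr, reaching 2.38, 2.25 and 2.43 at 120 hr. The difference from 0 hr was -0.03 at 24 hr (limma adjusted p = 0.849), 2.09 at 48 hr (2.05e-12) and 2.75 at 120 hr (SE 0.077, 1.28e-14). From 24 to 48 hr it rose by 2.12 (1.54e-11), a step chosen after the values were seen. The Cy5 signal of this probe was also higher at 120 hr, by 0.92 on the log2 scale against 3.67 for Cy3.

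The homeobox gene Esx1, needed for normal growth of the labyrinth layer of the placenta, was near its final level by 48 hr. It read 0.40, 0.38 and 0.55 at 0 hr, 2.33, 2.13 and 2.23 at 24 hr, 3.32, 2.71 and 2.98 at 48 hr, 3.29, 2.93 and 2.98 at 72 hr, 3.36, 3.00 and 3.30 at 96 hr, reaching 3.36, 3.10 and 3.05 at 120 hr. Its 0 hr arrays lie apart from all others, and the arrays of 48 to 120 hr overlap one another. The Cy3 signal at 0 hr was not above the negative controls, and the level was at least 2.91-fold higher at 24 hr and 5.62-fold at 120 hr (limma adjusted p = 4.01e-08 and 3.11e-11). Between 48 and 120 hr the difference was 0.17 (adjusted p = 0.443), whereas Nrk rose by a further 2.26 over the same span. For these later steps 9 of the 54 genes were called higher at 120 than at 48 hr and 0 lower, compared with 11.6% and 6.43% of all named genes.

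Rhox6 and Rhox9 lie close together in the Rhox homeobox cluster (X:37827055-37829857 and X:37899097-37901770, GRCm38.p6). Rhox6 read 1.05, 1.63 and 1.61 at 0 hr, 3.34, 3.47 and 3.53 at 24 hr, 4.74, 4.49 and 4.45 at 48 hr, 5.04, 4.14 and 4.45 at 72 hr, 4.78, 4.45 and 4.03 at 96 hr, reaching 5.41, 4.37 and 4.51 at 120 hr. Rhox9 read 2.85, 2.81 and 3.12 at 0 hr, 4.19, 4.50 and 4.50 at 24 hr, 4.96 and 4.80 at 48 hr (the second array is missing), 4.70, 3.87 and 4.09 at 72 hr, 4.20, 3.62 and 3.25 at 96 hr, reaching 4.84, 3.53 and 3.86 at 120 hr. In both genes the arrays at 0 hr lie below those of every later time, and the arrays of 48 to 120 hr overlap. At 120 hr Rhox6 was 3.33 higher (SE 0.26, limma adjusted p = 9.76e-09) and Rhox9 1.15 higher (SE 0.29, 0.00394), whereas the difference of Rhox9 had been 1.96 at 48 hr.

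The later ratios of both Rhox genes rest on saturated spots. The Cy3 signal of Rhox9 was 3158, 3024 and 4661 at 0 hr, 15156, 17648 and 12859 at 24 hr, then 34503, 39401 and 49965 at 48 hr, and at the ceiling of the scanner on all 9 arrays from 72 to 120 hr. That of Rhox6 was 1510, 1520 and 2096 at 0 hr and at the ceiling on 8 arrays from 72 hr on. Over the same arrays the Cy5 signal of the reference, the same RNA on every array, lay between 700 and 798 at 0 hr and between 3881 and 6404 from 72 hr on for Rhox9, and between 753 and 919 and then between 2907 and 3771 for Rhox6. By Cy3 alone, with saturated spots kept at the ceiling, Rhox9 was 4.31 and Rhox6 5.70 higher on the log2 scale at 120 hr, more than the ratios give. No fall of Rhox9 after 48 hr can be read from these ratios, and what moved Cy5 was not tested. The 2 probes share no run of more than 7 of their 60 bases.

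**Figure D2:**
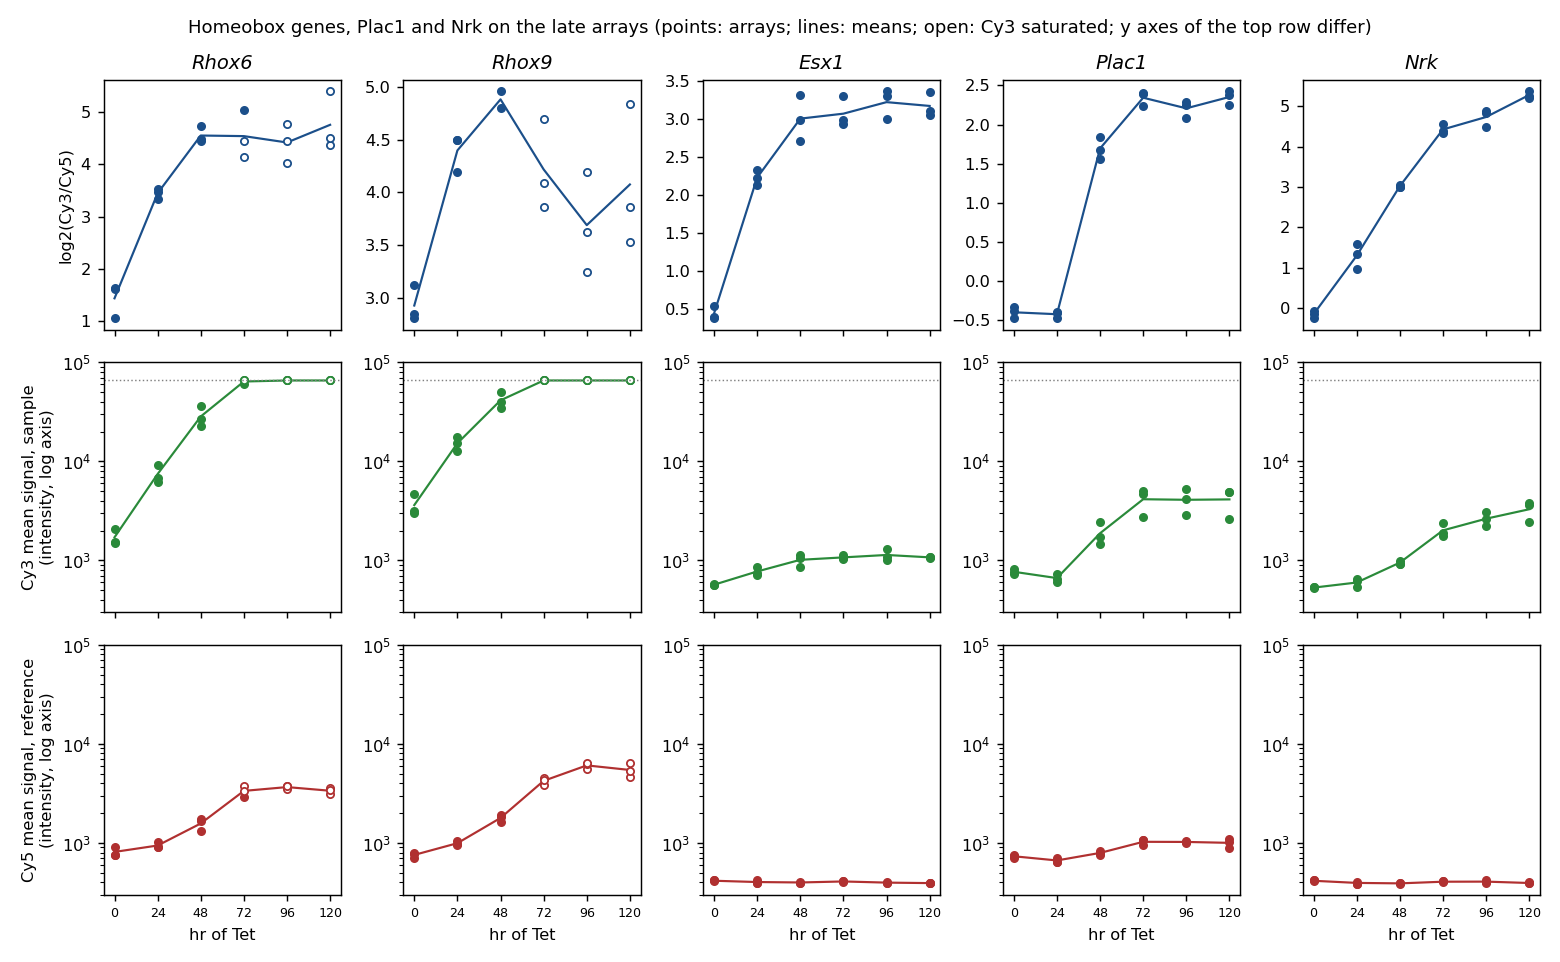
The 5 X-linked genes on the 18 late arrays by hours of Tet (x): log2(Cy3/Cy5), the Cy3 signal and the Cy5 signal (log axes, scanner units). Points are arrays, lines means, and open points saturated Cy3 spots. Nrk increased up to 120 hr, Plac1 only after 24 hr, and for Rhox6 and Rhox9 the Cy5 signal moved together with Cy3.

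The windows before the transcription starts of Plac1 and Ctsz are shown because both lie outside the annotated gene and because these genes are an X-linked and a lysosomal gene with different time courses (RefSeq, GRCm38.p6; the 250 bases before the start, read 5′ to 3′ on the gene's strand, capitals marking a GATA motif, AGATAA or its complement TTATCT). Plac1 lies on the minus strand, window X:53240111-53240360, and Ctsz on the minus strand, window 2:174439040-174439289. For Plac1 2 starts are listed, and the window is that of the first.

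Plac1: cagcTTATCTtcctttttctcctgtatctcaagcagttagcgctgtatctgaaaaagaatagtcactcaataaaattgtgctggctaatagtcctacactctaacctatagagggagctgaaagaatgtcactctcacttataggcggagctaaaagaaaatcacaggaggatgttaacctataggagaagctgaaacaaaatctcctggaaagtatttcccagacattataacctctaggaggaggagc

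Ctsz: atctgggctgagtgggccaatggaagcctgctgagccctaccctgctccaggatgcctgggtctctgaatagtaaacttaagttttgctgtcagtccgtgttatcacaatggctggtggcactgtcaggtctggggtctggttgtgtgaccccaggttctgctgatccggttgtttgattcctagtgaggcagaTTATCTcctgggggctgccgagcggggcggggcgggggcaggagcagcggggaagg

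The Plac1 window is poor in G and C (40.4%, 2 CpG) and carries TTATCT 246 bases before the start, and that of Ctsz has 58.8% and 7 CpG and TTATCT at 56 bases before it. The window of Nrk, which overlaps the annotated gene, holds 76.4% G and C and 24 CpG, and that of Esx1, inside the annotated gene, 54.0% and 24 CpG. All 27025 promoters of the table have a median of 52.0% and 6 CpG. Of the 59 genes, 49 have an entry. On both strands AGATAA was found in 11 of the 49 (22.4%) compared with 10.3% of all promoters, TATAAA in 10 (20.4% and 13.0%), CACGTG in 6 (12.2% and 6.05%), GCCNNNGGC in 4 (8.16% and 13.6%), and the octamer ATGCAAAT in 2 (4.08% and 1.61%). Members of a tandem family share sequence, so that these counts are not independent, and a match is a string of letters and not a binding site.

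The lysosomal cathepsins were the second group. Of the 13 cathepsins outside the placental branch, 5 were called higher at 120 hr, and their median difference was 0.142. Ctsz, a carboxypeptidase, had the smallest standard error of the 12 called genes. It read -2.59, -2.60 and -2.61 at 0 hr, -1.84, -1.95 and -1.92 at 24 hr, -2.37, -2.30 and -2.29 at 48 hr, -1.45, -1.28 and -1.37 at 72 hr, -0.73, -0.65 and -0.73 at 96 hr, reaching 0.03, 0.09 and 0.11 at 120 hr. All arrays after 0 hr lie above it, the order is broken once, at 48 hr, and from there each time lies above the time before. The difference at 24 hr was 0.70 (limma adjusted p = 2.19e-08), at 48 hr 0.28 (0.00035, under 1.5-fold) and at 120 hr 2.68 (SE 0.051, 1.68e-16). From 96 to 120 hr Ctsz still rose by 0.78 (4.26e-07), a step at which 0.585% of all named genes were called higher and 0.257% lower, and of the 54 genes only Ctsz and Ctsr (0.59, 2.65e-05).

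Ctsl, the endopeptidase of lysosomes, rose in steps. It read -2.67, -2.70 and -2.27 at 0 hr, -2.75, -2.47 and -2.60 at 24 hr, -1.93, -1.83 and -1.76 at 48 hr, -1.58, -1.45 and -1.51 at 72 hr, -1.22, -1.09 and -1.01 at 96 hr, reaching -0.63, -0.52 and -0.53 at 120 hr. The first 2 times overlap, and from 48 hr each time lies above the one before. At 120 hr Ctsl was 1.98 higher (SE 0.10, limma adjusted p = 2.8e-11), on a probe whose Cy5 signal was 54000 to 64668, just under the ceiling.

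Ctsa, a serine carboxypeptidase that protects other lysosomal enzymes, first read lower and then rose. It read -0.10, -0.10 and 0.24 at 0 hr, -0.36 and -0.68 at 24 hr (the first array is missing), -0.70, -0.45 and -0.34 at 48 hr, 0.29, 0.66 and 0.60 at 72 hr, 0.51, 1.06 and 1.10 at 96 hr, reaching 1.10, 1.59 and 1.71 at 120 hr. The differences of -0.54 at 24 hr (limma adjusted p = 0.0565) and -0.51 at 48 hr (0.0397) were under the thresholds, and those of 0.88 at 96 hr (0.00083) and 1.45 at 120 hr (SE 0.18, 4.61e-06) passed them. The arrays at 24 and 48 hr lie below all of 0 hr and those from 72 hr on above it.

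Ctsb and Ctsd, a cysteine and an aspartic protease, first passed the call at 96 hr, as Ctsa did. Ctsb read -1.32, -1.38 and -1.41 at 0 hr, -1.39, -1.65 and -1.68 at 24 hr, -1.54, -1.30 and -1.34 at 48 hr, -0.89, -0.86 and -0.92 at 72 hr, -0.66, -0.45 and -0.40 at 96 hr, reaching -0.39, -0.15 and -0.03 at 120 hr. Ctsd read 0.38, 0.30 and 0.15 at 0 hr, 0.47, 0.29 and 0.06 at 24 hr, 0.27, 0.33 and 0.28 at 48 hr, 0.38, 0.61 and 0.54 at 72 hr, 0.76, 0.98 and 0.91 at 96 hr, reaching 1.15, 1.44 and 1.37 at 120 hr. Both overlapped with 0 hr up to 48 hr and lay above it at 96 and 120 hr. At 96 hr Ctsb was 0.87 higher (limma adjusted p = 1.09e-06) and Ctsd 0.60 (9.39e-05), and at 120 hr 1.18 (SE 0.097, 1.92e-08) and 1.04 (SE 0.10, 1.38e-07).

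Ctsf, a lysosomal cysteine protease, was the only gene of the 54 called lower than 0 hr at any time. It read 2.03, 1.84 and 2.04 at 0 hr, 1.43, 1.30 and 1.01 at 24 hr, 1.48, 1.33 and 1.31 at 48 hr, 1.26, 1.26 and 1.27 at 72 hr, 1.31, 1.52 and 1.495 at 96 hr, ending with 1.43, 1.73 and 1.56 at 120 hr. Every later array lies below the arrays of 0 hr. Ctsf fell by 0.73 at 24 hr (limma adjusted p = 2.65e-05), by 0.60 at 48 hr (0.000142) and by 0.71 at 72 hr (1.78e-05), and the differences of -0.53 at 96 hr and -0.40 at 120 hr (0.000314 and 0.00329) were under 1.5-fold. Ctsc, which activates serine proteases of immune cells, differed by 0.29 at 120 hr (0.0289) and was not called.

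**Figure D3:**
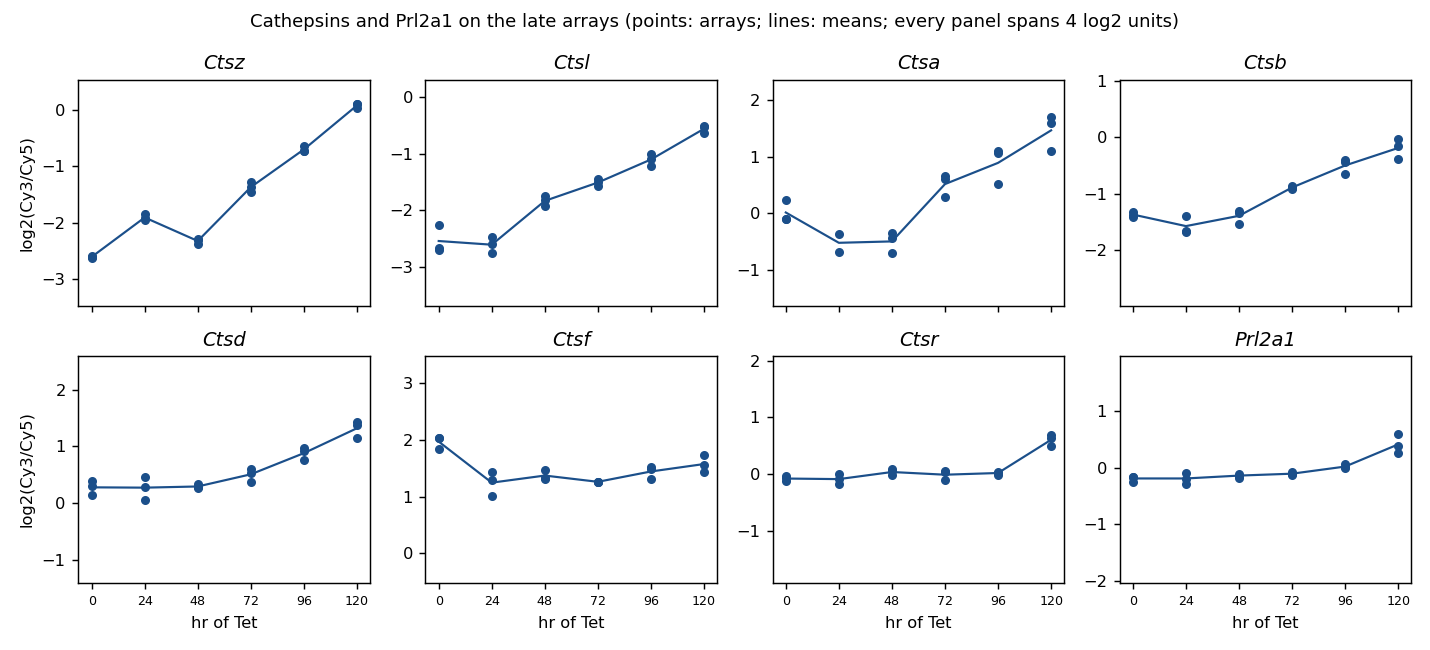
The lysosomal cathepsins Ctsz, Ctsl, Ctsa, Ctsb, Ctsd and Ctsf, with Ctsr and Prl2a1 on the 18 late arrays by hours of Tet (x), as log2(Cy3/Cy5) on axes of equal span. Points are arrays and lines means. Ctsz, Ctsl, Ctsa, Ctsb and Ctsd ended above 0 hr, Ctsf below it, and Ctsr and Prl2a1 were called against 0 hr only at 120 hr.

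Between neighbouring times, a set of steps chosen after the values were seen, different genes were called. From 24 to 48 hr 5 of the 54 rose and 0 fell (2.16% and 2.76% of all named genes): Plac1, Nrk (1.72), Rhox6 (1.11), Esx1 (0.77) and Ctsl (0.77). From 48 to 72 hr 4 rose and 0 fell (2.79% and 1.36%): Nrk (1.41), Ctsa (1.01), Ctsz (0.95) and Plac1 (0.65). From 72 to 96 hr only Ctsz rose (0.67, limma adjusted p = 5.29e-07; 1.60% and 0.328%), and from 96 to 120 hr Ctsz and Ctsr.

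Genes that work with cathepsins were read for comparison. Of 8 measured, 4 were called higher at 120 hr and 0 lower: Cstb, an inhibitor of cathepsins (2.45, limma adjusted p = 1.17e-11), Igf2r, a receptor that sorts lysosomal enzymes (1.59, 1.27e-09), Lgmn, a protease that processes them (1.56, 5.27e-12), and Lamp1 of the lysosomal membrane (0.73, 8.23e-06). Among the others Cst3 and Ctla2a, 2 inhibitors, differed by 0.16 and 0.17, and M6pr by -0.12. Cathepsins are also made in large amounts by macrophages. Of 6 macrophage and leukocyte markers 0 were called, and their summed Cy3 signal was 804 to 1000 at 0 hr and 880 to 979 at 120 hr. Ptprc, Lyz2 and Aif1 were not above the negative controls at either time. Itgam and Cd14 were above them on 18 of the 18 late arrays and Fcgr3 on 17, and Cd68 and Csf1r were not measured. The part of such cells in the cathepsin values was not tested.

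In the tandem families of the placenta few genes were called against 0 hr. Of the 6 placental cathepsins, which lie within 0.411 Mb on chromosome 13, only Ctsr was called. It read -0.13, -0.07 and -0.04 at 0 hr, 0.00, -0.18 and -0.09 at 24 hr, 0.05, 0.08 and -0.03 at 48 hr, 0.03, -0.11 and 0.04 at 72 hr, -0.01, 0.02 and 0.04 at 96 hr, reaching 0.50, 0.63 and 0.69 at 120 hr. The 3 arrays at 120 hr stand above the 15 others, which overlap. Its Cy3 signal was not above the negative controls at 0 hr and was 1.05 to 1.18 times their 95th percentile at 120 hr, and the level was at least 1.28-fold higher (limma adjusted p = 7.37e-08). Of the 5 others, Ctsm, Cts6 and Cts3, which have the brightest probes, and Cts7 and Cts8 were called at no time, and the 6 genes ranged from -0.11 to 0.69 at 120 hr.

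Among the 15 prolactins on the late arrays, which with 4 more lie within 15.155 Mb of chromosome 13, only Prl2a1 was called against 0 hr. It read -0.26, -0.16 and -0.16 at 0 hr, -0.20, -0.09 and -0.28 at 24 hr, -0.14, -0.17 and -0.11 at 48 hr, -0.11, -0.07 and -0.13 at 72 hr, 0.01, 0.07 and -0.01 at 96 hr, reaching 0.25, 0.39 and 0.59 at 120 hr. All arrays of 96 and 120 hr lie above those of 0 hr. The difference at 120 hr was 0.60 (SE 0.071, limma adjusted p = 1.64e-06), just past 1.5-fold, and it was under this threshold without the third array of 120 hr (0.51) or the first of 0 hr (0.57). The raw Cy3 signal of Prl2a1 was 872, 736 and 866 at 0 hr, against 775, 884 and 917 at 120 hr, which overlap, and by Cy3 alone the difference was 0.49.

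Prolactins other than Prl2a1 showed small differences that passed the p but not 1.5-fold at 120 hr: Prl7d1, a proliferin-related protein (0.56, limma adjusted p = 4.77e-05), Prl6a1 (0.37, 0.000218) and Prl2c2, a proliferin (0.27, 0.0224). Prl7d1 read 0.37, 0.30 and 0.25 at 0 hr, against 0.78, 0.92 and 0.90 at 120 hr. Between 48 and 120 hr Prl7d1 (0.63) and Prl2c2 (0.60) were called higher. Both are dim: the raw Cy3 signals of Prl7d1 were 636, 603 and 627 at 0 hr, against 542, 583 and 607 at 120 hr, and those of Prl2c2 604, 608 and 633 and 533, 577 and 560, lower at 120 hr, while the 95th percentile of the negative controls ranged from 506 to 653 over the arrays. The median of the 15 was 0.155, with a range of -0.10 to 0.60. Near copies of these genes exist, and the probe of the Prl3d group, placental lactogen I, may detect more than 1 of them; it differed by 0.28.

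Of 6 Psg genes 0 were called by limma at any time (at 120 hr 1, lower, at an unadjusted p of 0.05), and at 120 hr they ranged from -0.10 to 0.06 with a median of 0.043. Psg28, the brightest, read -0.29, -0.31 and -0.35 at 0 hr, against -0.17, -0.37 and -0.25 at 120 hr, which overlap, at 1.23 to 1.34 and 1.36 to 1.59 times the negative controls. Psg16 and Psg18 differed by 0.04 and 0.05. Of 9 Ceacam genes 0 were called (1 higher and 2 lower at the unadjusted p), with a median of -0.006 and a range of -0.22 to 0.37. Ceacam19, their brightest, read -0.32, -0.19 and -0.23 at 0 hr, against -0.25, -0.26 and -0.24 at 120 hr. Ceacam10 differed by 0.08, Ceacam13 by -0.22 (limma adjusted p = 0.0357) and Ceacam15 by 0.37 (0.000355).

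Low signal limits this negative result. On the late arrays 22 of the 54 genes had a Cy3 signal above the negative controls on all 18 arrays, 24 on some and 8 on none. In the prolactin family 2 of 15 were above them throughout and 5 on no array, in the Psg family 2 of 6 and 1, among the Ceacam genes 4 of 9 and 0, and among the placental cathepsins 0 of 6 and 2. Of the 13 other cathepsins 11 were above them on every array. A small change of a gene at this level was not detectable on these arrays. On the early arrays 49 of 59 and in the Nanog experiment 52 of 59 were above the controls throughout.

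Genes of trophoblast outside the families were higher in 9 of 15 cases at 120 hr and lower in 0. The keratins Krt19 (5.62) and Krt7 (4.10) and the transcription factor Gata3 (4.10) were among them, and so were Krt18, saturated on all 9 arrays from 72 hr on, and Gata2, not above the negative controls at 0 hr, all with limma adjusted p of 7.15e-12 or lower. Also called were Tfap2c, a factor of the trophoblast lineage (1.36), Plac8 (1.37, not above the negative controls at 0 hr) and Rhox5, the founding gene of the Rhox cluster (0.75). Elf5 of trophoblast stem cells (0.56) and Hand1 of giant cells (0.49) were under 1.5-fold and not called. Neither were Gcm1 of syncytiotrophoblast (0.13) and Tpbpa of spongiotrophoblast (0.07). In a limma F test over all times the adjusted p was 8.99e-07 for Elf5, 0.000116 for Hand1, 0.0494 for Gcm1 and 0.335 for Tpbpa. The probe of Cdx2, another such factor, is described as unresponsive in the study, and its value is not given here. Cdx2 is still counted among the 15 genes and in the sum that follows. Summed over 12 trophoblast markers, the Cy3 signal was 4082 to 5806 at 0 hr and 195337 to 239954 at 120 hr. Of markers of other cell types, 4 of 10 for primitive endoderm were higher at 120 hr, and of 7 for fibroblasts 2 were higher and 1 lower, and their part in the values of the 12 genes was not tested. Of 7 genes of prolactin signalling, the receptor Prlr (1.71, not above the negative controls at 0 hr) and the kinase Jak2 (1.67) rose and the feedback inhibitor Socs2 fell by 2.72, whereas Prl itself (0.03), Stat5a (0.01) and Cish (-0.06) were not called.

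The early arrays cover the first day of Tet with other probes for part of the genes: of the 54 genes on both designs, 47 are read by the same oligonucleotide. At 3 hr 0 of 59 genes were called by limma (3 at an unadjusted p of 0.05), as were 0% of all named genes. At 6 hr only Ctsd was called (2.70% of all named genes higher, 0.205% lower) and at 12 hr only Esx1 (0.381% and 0.798%). At 24 hr 5 were called higher, Esx1, Ctsd, Ctsz, Ctsl and Nrk, and 2 lower, Ceacam20 and Ctsc (9.26% and 3.83%). The median difference at 24 hr was -0.116 over the 59 genes and -0.037 over all named genes.

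Esx1 was the X-linked gene called earliest. It read 2.16 and 2.13 at 0 hr, 2.05 and 2.11 at 3 hr, 2.11 and 2.39 at 6 hr, 2.95 and 2.83 at 12 hr, reaching 4.20 and 4.25 at 24 hr. The difference was 0.74 at 12 hr (limma adjusted p = 0.0167) and 2.08 at 24 hr (SE 0.11, n = 2 and 2, 1.5e-05), and at 24 hr Cy3 was higher by 2.16 and Cy5 by 0.08. Nrk read 1.08 and 0.97 at 0 hr, 0.74 and 0.81 at 3 hr, 0.83 and 0.78 at 6 hr, 1.11 and 0.92 at 12 hr, reaching 1.77 and 1.61 at 24 hr. Both arrays at 24 hr lie above the 8 others, with a difference of 0.66 (SE 0.10, 0.00351), also in Cy3 (0.75 against 0.09 in Cy5), and it was under 1.5-fold without the first array of 24 hr (0.58). Plac1 read 0.18 and 0.26 at 0 hr, against 0.30 and 1.08 at 24 hr (0.47, 0.274), and Rhox6 2.95 and 3.45 at 0 hr, against 3.97 and 3.42 at 24 hr (0.50), neither called.

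Rhox9 read 5.10 and 5.05 at 0 hr, against 4.92 and 5.63 at 24 hr and was not called (0.20, limma adjusted p = 0.543). On average its Cy5 was higher by 0.75, against 0.95 for Cy3. The raw Cy5 signal was 577 and 704 at 0 hr and 890 and 685 at 24 hr, so that only 1 array of 24 hr lay above those of 0 hr. The raw Cy3 signal of Rhox9 went from 11426 and 11241 to 22882 and 24616, and that of Rhox6 from 6446 and 7431 to 11298 and 12250. By Cy3 alone both were called higher at 24 hr. Another, dimmer Rhox6 probe differed in ratio by 0.08 at 24 hr, against 0.495 for the probe used. What moved Cy5 was not tested.

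Ctsl read -3.21 and -3.03 at 0 hr, -3.30 and -3.37 at 3 hr, -3.09 and -3.24 at 6 hr, -2.74 and -2.83 at 12 hr, reaching -2.04 and -2.12 at 24 hr. The difference at 24 hr was 1.04 (SE 0.10, limma adjusted p = 0.000321), with 0.99 in Cy3. Its raw Cy5 signal was 51411 to 65517, at the ceiling of the scanner on some arrays, 1 of 0 hr among them, so that the ratios rest in part on saturated reference spots. The same gene on the late arrays did not differ at 24 hr beyond the threshold (-0.07, 0.678), and the 2 experiments were not tested against each other.

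In the other 4 early calls Cy5 moved more than Cy3. Ctsd read 0.69 and 0.59 at 0 hr, 1.28 and 1.55 at 3 hr, 1.95 and 2.30 at 6 hr, 1.13 and 1.67 at 12 hr, reaching 2.39 and 2.79 at 24 hr. The difference was 1.49 at 6 hr (limma adjusted p = 0.0254) and 1.95 at 24 hr (SE 0.20, 0.000492), with 0.35 in Cy3 and -1.60 in Cy5 at 24 hr. It was 0.34 with the authors' normalized values and 0.54 after correcting for Cy5 bleaching, and was then not called. Ctsz read -1.89 and -2.05 at 0 hr, against -1.14 and -0.62 at 24 hr (1.09, SE 0.25, 0.018), with 0.27 in Cy3 and -0.82 in Cy5, and was not called with the authors' values (0.43) or without either array of 0 hr (1.17 and 1.01) or the second of 24 hr (0.83).

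Ceacam20 read 0.66 and 0.81 at 0 hr, against 0.00 and 0.10 at 24 hr (-0.69, SE 0.11, limma adjusted p = 0.00371), with -0.23 in Cy3 and 0.45 in Cy5. Ctsc read 0.70 and 0.95 at 0 hr, against 0.29 and 0.05 at 24 hr (-0.66, SE 0.14, 0.0134), with -0.19 in Cy3 and 0.47 in Cy5. With the correction of Cy5 bleaching the differences were -0.38 and -0.27, and neither was called. The call of Ctsc was also lost without the second array of 0 hr or of 24 hr (both -0.53). Of the 19 prolactins, 6 Psg genes and 6 placental cathepsins, 0 were called by limma (4, 1 and 1 at an unadjusted p of 0.05, all lower), with medians of -0.16, -0.105 and -0.079. Another, dimmer Psg16 probe differed by -0.52 at 24 hr (limma adjusted p = 0.00603), under 1.5-fold, against 0.01 for the probe used.

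**Figure D4:**
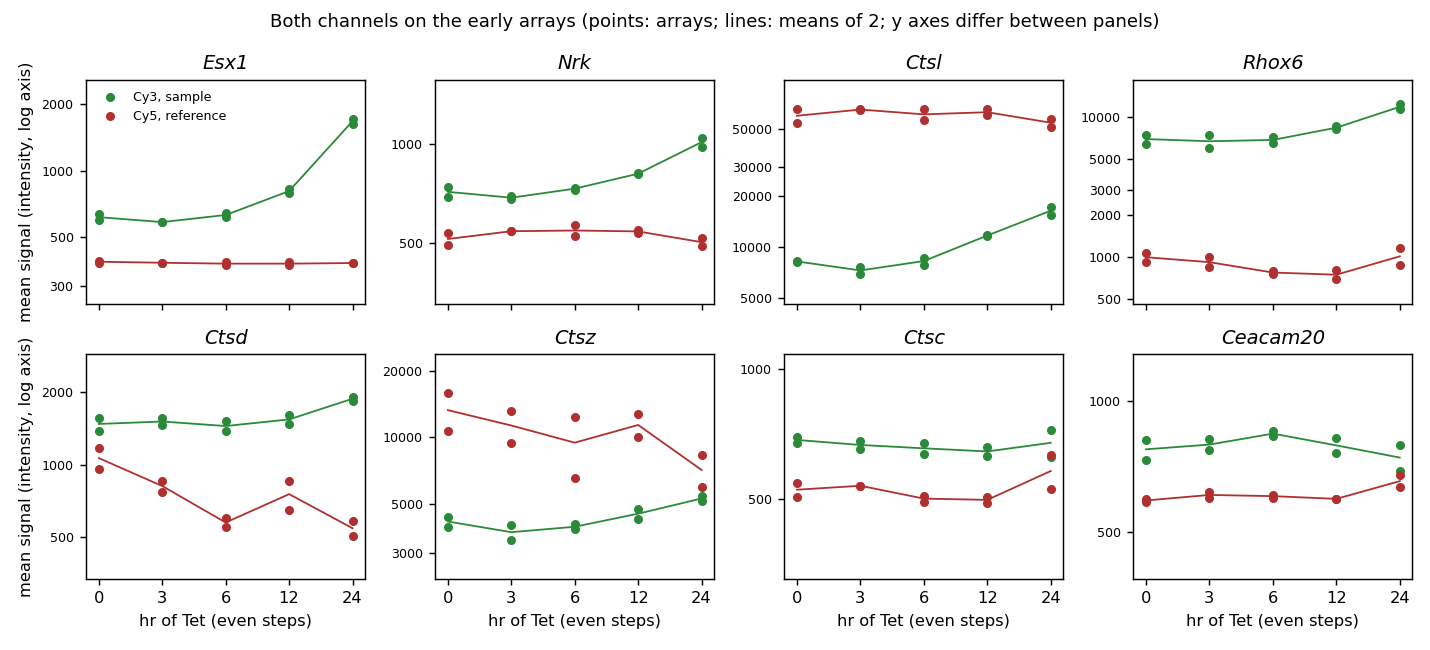
The Cy3 (ES cells) and Cy5 (reference) signals of 8 genes on the 10 early arrays by hours of Tet (x; log axes, scanner units). Points are arrays and lines means. Esx1, Nrk and Ctsl changed in Cy3, whereas for Ctsd, Ctsz, Ctsc and Ceacam20 the Cy5 signal moved more than Cy3.

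In the Nanog experiment the media were read first through known targets: Socs3 changed by -2.05 to -2.93 without LIF and Cyp26a1 by 2.14 to 3.03 on RA in the 4 lines. On RA 7 of the 59 genes were called higher and 0 lower by limma, with the line as a block, compared with 8.47% of all named genes higher and 2.47% lower. At an unadjusted p of 0.05, 10 were higher and 6 lower. The 7 were Esx1, Rhox6, Rhox9 and Nrk of the X-linked genes and Ctsl, Ctsb and Ctsd of the lysosomal cathepsins. The median was 0.002 over the 59 genes and 0.01 over all named genes.

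Esx1 read 0.81, 0.31, 0.68 and 0.35 with LIF on the arrays labelled episomal Nanog clone, integrated Nanog clone, MG1.19 and ES 129.3, and 3.80, 2.89, 4.38 and 2.74 on RA in the same order. The 2 sets do not overlap, and the mean difference was 2.91 (SE 0.23, 4 pairs, limma adjusted p = 0.000243), from 2.39 in ES 129.3 to 3.69 in MG1.19. Rhox6 read 1.48, 0.56, 2.68 and 0.93 with LIF and 3.17, 1.79, 4.49 and 2.34 on RA. Its 2 sets overlap between lines, but within each line RA was higher, by 1.23 to 1.81 (mean 1.53, SE 0.24, 0.00374), and another probe gave 1.44 (0.00873).

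Rhox9 read 1.66, 1.03, 3.24 and 1.47 with LIF and 3.05, 2.38, 4.21 and 2.68 on RA (1.23, SE 0.26, limma adjusted p = 0.0151). Rhox6 and Rhox9 had the same order of lines, with MG1.19 highest and the integrated clone lowest in LIF and on RA. Nrk read 0.20, 0.28, 0.68 and 0.85 with LIF and 1.189, 0.69, 1.46 and 1.74 on RA (0.77, SE 0.20, 0.0357). Another, dimmer Nrk probe differed by 0.04 (0.768), and without MG1.19 the calls of Nrk (0.76), Rhox9 (1.32) and Ctsd (0.61) were lost. The call of Nrk was also lost without ES 129.3 (0.73) or the integrated clone (0.89), and that of Ctsd without ES 129.3 (0.58) or the arrays labelled episomal Nanog clone (0.45). Plac1 read -0.06, -0.30, -0.17 and -0.14 with LIF and 0.16, -0.05, 0.53 and 0.14 on RA (0.36, 0.0316), higher in 4 of 4 lines and under 1.5-fold.

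Ctsl read -3.20, -3.12, -3.23 and -2.02 with LIF and -0.99, -1.60, -2.01 and -1.48 on RA (1.37, SE 0.23, limma adjusted p = 0.00487), with a range from 0.54 in ES 129.3 to 2.21 on the arrays labelled episomal Nanog clone. Ctsb read -2.85, -2.69, -2.94 and -2.68 with LIF and -2.12, -1.78, -2.07 and -1.57 on RA, without overlap (0.90, SE 0.062, 0.000136). Ctsd read -1.496, -0.68, -0.99 and -0.97 with LIF and -0.48, -0.50, -0.45 and -0.33 on RA (0.59, SE 0.12, 0.0116), by 0.18 in the integrated clone and 1.02 on the arrays labelled episomal Nanog clone. Other probes of Ctsl (1.22, 0.00457) and Ctsb (0.76, 0.000318) were also higher. The families of prolactins, Psg, Ceacam and placental cathepsins had medians of -0.003, -0.052, -0.061 and -0.013 on RA with 0 called by limma (1, 2, 1 and 1 at an unadjusted p of 0.05, all lower).

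**Figure D5:**
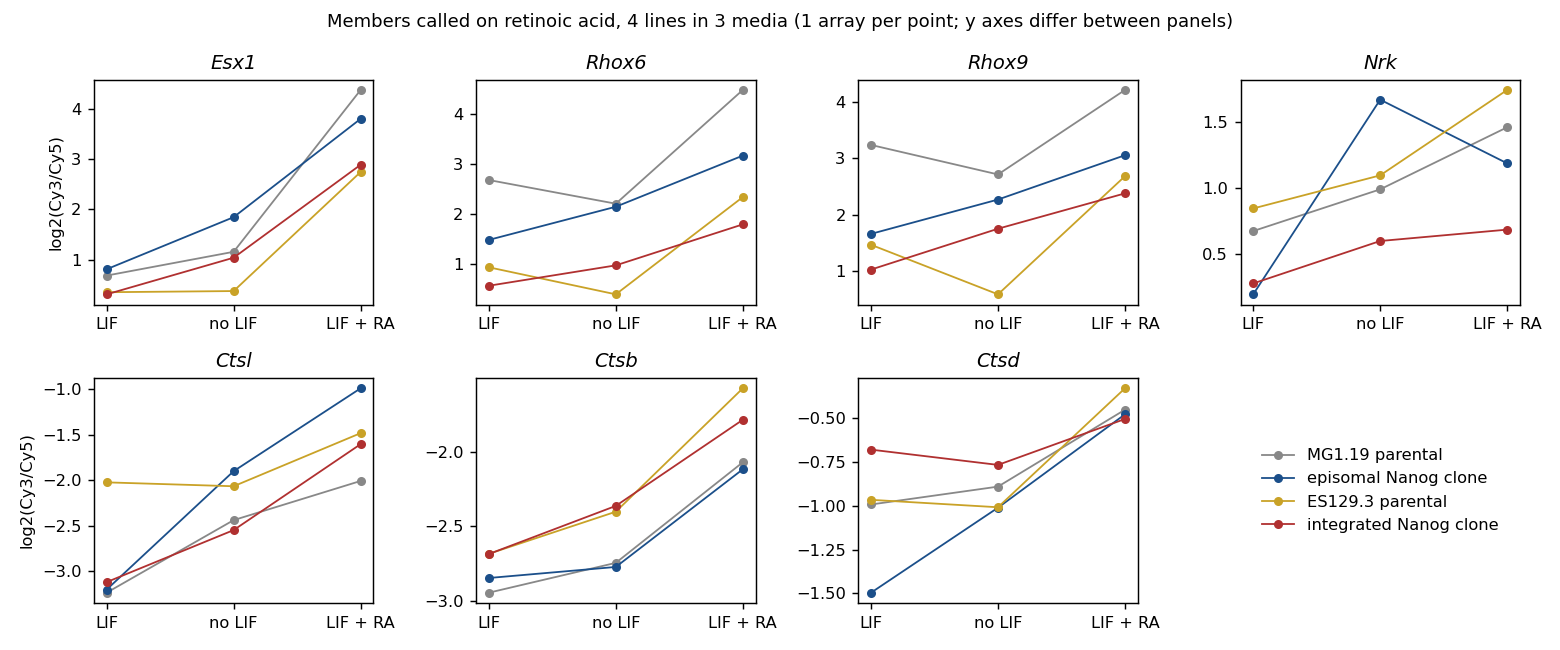
The genes called on RA, in the 4 lines with LIF, without LIF and with LIF and RA (x), as log2(Cy3/Cy5) of 1 array each, joined by line. RA lies above LIF for these genes in all 4 lines, and without LIF Rhox6 and Rhox9 lie above LIF in the transgenic lines and below it in the parental lines.

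On RA 6 of 16 other trophoblast genes were called higher and 0 lower, among them Gata3 (2.20), Krt8 (2.04), Gata2 (1.43) and Krt18, whose Cy3 spots were at the ceiling of the scanner on 3 of the 4 RA arrays, with limma adjusted p of 0.00187 or lower. Of the cathepsin partners Cstb (1.26), Igf2r (1.10) and Lamp2 (0.93) were higher, 3 of 8. Of markers of other cell types 7 of 10 for primitive endoderm and 5 of 7 for fibroblasts were higher on RA and 0 of 6 for macrophages. The summed Cy3 signal of the 13 trophoblast markers was 8083 to 36199 with LIF and 39179 to 90564 on RA. The part of these cell types in the values of the 7 genes was not tested.

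Without LIF 0 of the 59 genes were called by limma (8 at an unadjusted p of 0.05, 5 higher and 3 lower), compared with 1.05% of all named genes higher and 1.09% lower. Esx1 read 1.85, 1.04, 1.16 and 0.38 and Nrk 1.67, 0.60, 0.99 and 1.10 without LIF, above their levels with LIF in 4 of 4 lines each, and neither passed the adjusted p. Rhox6 read 2.15, 0.97, 2.21 and 0.39, and Rhox9 2.27, 1.75, 2.71 and 0.59. Both were above LIF in the 2 transgenic lines and below it in the 2 parental lines.

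Nanog transgenic lines were compared with their parental lines over the 3 media. The 3 pairs of 1 background share a clone, so that p-values of this comparison are too small for 2 clones. With the passage of the clones not labelled, a difference in passage cannot be told apart from one of the transgene. Of the 59 genes 0 were called (2 at an unadjusted p of 0.05, both lower), compared with 0% of all named genes higher and 0.00726% lower. The difference was -0.49 for Rhox6 (limma adjusted p = 0.323), -0.46 for Rhox9 (0.475), -0.37 for Nrk (0.356) and 0.17 for Esx1 (0.618). The response to RA did not differ between transgenic and parental lines past the threshold for any of the 59 (5 at an unadjusted p of 0.05), with 1 array per line and medium.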

How the data were processed

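RNA was measured on 40 two-color Agilent arrays of 3 designs (NIA Mouse 22K Dev2, 44K v2.2 and 44K v2.1), read with Feature Extraction 7.5.1 per the file headers. For each array the authors deposited mean signals and local backgrounds of each spot in intensity units, and processed signals. For each design they also deposited normalized values in log10 units, used only as an alternative, where 1 column counts as score values because a missing-value code stands in 10 cells. Columns of other samples numbered 0.

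Mean signals were corrected by normexp (offset 50), balanced by loess within arrays in limma 3.58.1 (R 4.3.3, data.table version 1.17.8, statmod 1.5.0), with scanner outliers set to missing (up to 2.81% of gene probe values per array), saturated spots kept, controls dropped and spots of 1 probe averaged. Dyes were never swapped, so that a dye effect cancels only in differences between arrays. Raw signals are scanner units. The number of arrays limits the precision, and signals near the negative controls understate changes.

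Times were fitted within each design against 0 hr, and media with the line as a block. Transgenic and parental lines were compared with the pair of arrays (background and medium, 6 pairs) as a block. Fits used lmFit and eBayes (two-sided, Benjamini-Hochberg over all gene probes). A gene is its brightest probe. "At least" folds set the bright group's mean Cy3 against the higher of the dim probe and the lowest signal above the negative controls, open to dye bias. Symbols came from accessions, identical probes and the paper's tables, and coordinates from RefSeq (GRCm38.p6). Named in full were genes called at 120 hr, and with their test every other called gene and the 3 brightest of each family with none called. The genes, lists and tests were chosen with earlier results of these data known. The integrated clone was paired with ES 129.3 by strain, whereas the paper names MC1 as the line transfected and a deposited description names others, and a protocol of the late arrays describes another construct than their titles. Alternatives covered background correction, normalization, Cy3 alone, Cy5 bleaching, error variance, thresholds, probe choice, blocks and left-out arrays. Scripts were tested on simulated data. Replicate numbers were not a block in the main fits. Residuals of equal number correlated with a mean r of 0.156 (late) and 0.114 (early). Those of different numbers correlated with a mean r of -0.071 and -0.114.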

Additional observations from a re-analysis of the deposited data

Results flagged for a closer look

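In each medium the 4 lines were screened for a line far from the others, in 45 groups of 4 values for the 15 genes called against 0 hr or between media (genes called only between later times were not screened), of which chance picks about 1 in 20. Of these, 2 stood apart. Ctsl in LIF read -2.02 in ES 129.3 and -3.23 to -3.12 in the other lines, and Ctsz on RA read -2.40 in MG1.19 and -1.90 to -1.87 in the others.

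Withdrawal of LIF moved Rhox6 and Rhox9 in opposite directions in transgenic and parental lines. Rhox6 changed by 0.67 and 0.41 on the arrays labelled episomal Nanog clone and integrated Nanog clone and by -0.48 and -0.54 in the parental lines MG1.19 and ES 129.3, a difference of 1.05 (SE 0.19, limma adjusted p = 0.815 over all probes). Rhox9 changed by 0.61 and 0.72 and by -0.52 and -0.88, a difference of 1.37 (SE 0.19, limma adjusted p = 0.764). Both fail the correction, and the arrays labelled episomal Nanog clone did not read higher for Nanog than their parental line.

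Ctsf at 24 hr of Tet was lower on the late arrays (-0.73) and not on the early arrays (0.12), read by the same oligonucleotide, a gap of -0.85. Another, dimmer Ctsf probe on the early arrays differed by 0.44 at 24 hr (limma adjusted p = 0.045), under 1.5-fold. The difference between the 2 experiments was not tested.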

How the results depend on the processing

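For single genes, 522 alternative values kept their direction and side of the threshold, 52 lost it, and 0 changed direction. At 120 hr the count of 12 genes called higher ranged from 10 to 15 over the alternatives and from 11 to 13 when 1 array was left out, and by Cy3 alone 1 gene (Ctsf) was called lower. At 24 hr on the early arrays, 3 genes were higher in place of 5 with the values the authors normalized and with the correction of Cy5 bleaching, and 0 with the error variance of the methods. In place of 2 lower genes there were 4 with the processed signals, 5 with the authors' values, 1 by Cy3 alone, and 0 with the bleaching correction, the methods' variance or a 2-fold threshold. Leaving out 1 array gave 1 to 3 lower and 4 to 5 higher. Without LIF, 1 gene (Ceacam1) was lower with the processed signals, the authors' values and an offset of 16. On RA, 2 in place of 7 were higher with the methods' variance, 4 at 2-fold, 4 with no line block, and 4 to 6 with 1 line left out (4 without MG1.19). With the integrated pairs alone, 1 gene (Nrk) was lower in the transgenic line. By Cy3 alone Rhox9 and Rhox6 were 4.31 and 5.70 higher at 120 hr. Where no value above shows it, the cause was not tested.

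Same-numbered arrays had correlated deviations in 28 of 45 late pairs (r over 0.1, range -0.431 to 0.757) and 12 of 20 early pairs. Their mean r was 0.156 (late) and 0.114 (early). For arrays of different numbers it was -0.071 and -0.114, which is no separate comparison, because deviations from the mean of 1 time cancel out. The main fits left the likeness of same-numbered arrays out. With the replicate block 12 genes were higher and 0 lower at 120 hr, and 5 higher and 2 lower at 24 hr. Arrays correlated best with their own number in 12 of 18 late and 10 of 10 early cases. On the early arrays the 2 arrays of 1 time deviate as mirror images, so that the early pairs and cases repeat one another and are not independent. Scan date as a block was not run, because the headers used here hold no date. Signals near the negative controls limit the late values of prolactins, Psg genes and placental cathepsins.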

Other observations

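The prolactin family gene Prl5a1, chosen after its values were seen, read 0.27 in LIF on the arrays labelled episomal Nanog clone and -1.02 to -0.55 on the other 11 arrays of the Nanog experiment. This reading rests on 1 array and on the brighter of 2 probes. For noLIF minus LIF the dimmer probe differed by 0.006, against -0.35 for the brighter one. For transgenic minus parental lines the values were -0.07 and 0.26.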
